A study of Homo sapiens with 30 samples.

Results

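Translation initiation factors (eIFs) and elongation factors (eEFs) are the proteins that bring ribosomes to mRNAs and move them along the message. The factors were taken by name: every gene symbol that begins with EIF1 to EIF6, EEF1 or EEF2 was included, except the EIF2AK kinases and the EIF4EBP inhibitors. The rule gave 62 of the 25680 symbols in the expression tables, and each symbol was represented by its transcript with the highest mean count. Of these, 49 were placed in 8 functional complexes or steps, and the other 13 were kept as further members by name.

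The study treated multiple myeloma cells with dBRD9-A, which degrades the protein BRD9. BRD9 has a bromodomain and belongs to a form of the BAF complex that remodels chromatin. RNA sequencing was done on H929 cells with 100 nM dBRD9-A, H929 cells with the solvent DMSO, OPM2 cells with 100 nM dBRD9-A and OPM2 cells with DMSO, each for 24 h. H929 and OPM2 are established human multiple myeloma lines, and each of the 4 groups held 3 libraries. A further 18 of the 30 samples listed, with hairpins against BRD9 or luciferase or from polysomes, were not analysed here.

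In cap-dependent initiation, eIF2 carries the initiator tRNA to the small ribosomal subunit, and eIF4F recruits that subunit to the capped end of the mRNA. eIF3 and the scanning factors eIF1 and eIF1A hold the subunit open, and eIF5 makes eIF2 hydrolyse its GTP at the start codon. eIF5B then joins the large subunit, eEF1A delivers each aminoacyl-tRNA, eEF2 moves the ribosome forward and eIF5A helps it through difficult stretches such as runs of proline. Plasma cells, the normal counterpart of myeloma cells, secrete large amounts of antibody and depend on a high rate of protein synthesis. Several of these factors, EIF4A1, EIF4E and EIF2S1 among them, are known targets of the transcription factor MYC.

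Library totals over 1 transcript per symbol were 42895389 to 76600945 counts, except for OPM2 dBRD9-A replicate 2 with 24524193. That library stood apart: over 11350 genes its log2 values differed from those of replicates 1 and 3 with an SD of 0.896, and the differences fell with transcript GC content (Spearman -0.675). For the 9 libraries outside its group this SD was 0.149 to 0.259, and in H929 dBRD9-A replicates 1 and 2 the differences also followed GC content (Spearman -0.575 and 0.616). Plasma cell markers summed to 5224 to 5476 CPM with dBRD9-A and 6126 to 6797 CPM with DMSO in H929, and to 3821 to 5221 CPM with dBRD9-A and 5249 to 6036 CPM with DMSO in OPM2. T cell markers reached 36.7 to 39.7 CPM with dBRD9-A and 23.3 to 25.6 CPM with DMSO in H929, nearly all of it CD3E, while CD3D and CD3G were at most 0.0337 and 0.0505 CPM in any library. Myeloid markers reached 5.08 to 10.5 CPM with dBRD9-A and 1.55 to 4.10 CPM with DMSO in H929, and at most 0.739 CPM in OPM2. Stroma and epithelium markers, 5 genes with COL1A2 at 0 in every library, reached 5.39 to 9.27 CPM with dBRD9-A and 2.31 to 3.52 CPM with DMSO in H929, and at most 0.680 CPM in OPM2. Of these, COL1A1 and KRT8 were called higher in H929 (3.03, adjusted p = 0.00156, and 1.12, adjusted p = 0.0339) and in OPM2 (2.09, adjusted p = 0.0253, and 2.57, adjusted p = 0.0276). CD2 (2.43, edgeR adjusted p = 0.0367) and CSF1R (1.65, adjusted p = 0.0456) were called higher in H929. Of the plasma cell markers, SLAMF7 (-0.62, adjusted p = 0.0161) and IRF4 (-0.72, adjusted p = 0.045) were called lower in H929. SLAMF7 (-1.63, adjusted p = 4.54e-05) and MZB1 (-1.57, adjusted p = 0.000273) were called lower in OPM2, and no other plasma cell marker was called. HBB, a red cell marker, was at 3.19 CPM with dBRD9-A, against 6.17 CPM in DMSO in OPM2, and was not called in either line. The part of these markers in the results was not tested. The BRD9 transcript, whose protein is what the compound removes, had a log2 fold change of -0.46 ± 0.13 in H929 (SE, edgeR adjusted p = 0.0391) and -0.23 ± 0.13 in OPM2 (adjusted p = 0.241, not called).

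Translation factor mRNAs are known for the way they begin. Many carry a 5′ terminal oligopyrimidine tract, a C at the first base followed by an unbroken run of pyrimidines, through which mTOR and LARP1 control their translation. In the RefSeq promoter table (build GRCh38.p14), 50 of the 62 members had an entry, and in 12 of them (24.0%) an annotated transcript began with C in a run of at least 5 pyrimidines, against 5.14% of 27305 genes in the table. The 27305 genes were not limited to those expressed in these cells. The 12 members were EEF1A1, EEF1B2, EEF2, EIF2A, EIF2D, EIF2S3, EIF3D, EIF3F, EIF3K, EIF3M, EIF4A2 and EIF4B. The first 20 bases of 7 of these starts are shown first, since they include the most abundant elongation factors and the 3 pyrimidine-start members called in either line. They are followed by 4 starts of members that were called lower in both lines, and the capitals mark the opening pyrimidine run.
EEF1A1, chr6:73521013-73521032, minus strand: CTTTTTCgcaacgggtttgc
EEF2, chr19:3985444-3985463, minus strand: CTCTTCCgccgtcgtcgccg
EIF4B, chr12:53006456-53006475, plus strand: CTTTTgcgttctctttccct
EIF3F, chr11:7987337-7987356, plus strand: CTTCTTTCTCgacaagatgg
EIF3K, chr19:38619188-38619207, plus strand: CTCTTCCTgttcccgtcctt
EIF2S3, chrX:24054956-24054975, plus strand: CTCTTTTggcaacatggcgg
EIF4A2, chr3:186783577-186783596, plus strand: CTTTTCagtcgggcgctgag
EIF4A1, chr17:7572825-7572844, plus strand: cctagtttctaaggatcatg
EIF2S1, chr14:67360328-67360347, plus strand: atgcgcggtggagtgagcga
EIF3B, chr7:2354827-2354846, plus strand: atggctgggctgtagccgtc
EEF1E1, chr6:8102529-8102548, minus strand: gcgtctgccaggagctacgg
The last 4 starts open with no such run, although the EIF4A1 start holds 3 pyrimidines before an A.

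With dBRD9-A, the members that passed the test were nearly all lower than with DMSO in both lines, and they were spread over most of the complexes. In H929, 13 of the 59 members tested were called lower (edgeR quasi-likelihood test, adjusted p under 0.05) and 0 were called higher, with 24 at an unadjusted p under 0.05. Of all 16408 genes tested in H929, 13.0% were called, 5.67% lower and 7.33% higher. In OPM2, 12 members were called lower and 1 higher, against 17.4% of all genes called, 7.34% lower and 10.1% higher. The median log2 fold change was -0.28 over the members and -0.0019 over all genes tested in H929. In OPM2 it was -0.19 over the members and 0.029 over all genes. In H929, 36 members had every dBRD9-A library below every DMSO library, against 23.6% of all genes. In OPM2, 25 members did so, against 18.9% of all genes. EIF3C and EIF3CL, near-identical copies that give 1 measurement, are both in each of these counts. EIF3IP1 and EIF4E1B, with at most 2 and 1 counts in any library, did not pass the filter on low counts, and EIF1AY was not tested either. In RNA from whole cultures, fewer cells of one kind and less RNA per cell cannot be told apart.

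Without OPM2 dBRD9-A replicate 2, which also changes the spread that the 4 groups share, 29 members were called lower and 2 higher in H929, and 29 lower and 1 higher in OPM2. EIF3C and EIF3CL, which are 1 measurement, are both among the 29 called lower in each line. Of all genes, 35.7% were then called in H929, 16.5% lower and 19.2% higher, and 31.7% in OPM2, 15.6% lower and 16.1% higher. All 13 members called in each line with every library were among those called without replicate 2, and the OPM2 median became -0.28, against 0.0023 over the 16653 genes tested in that fit. In H929, 0 members were called without dBRD9-A replicate 1 or without DMSO replicate 2 (16 at an unadjusted p under 0.05 in each), and 2 to 8 were called without any other single H929 library. Of all genes, 4.86% to 9.05% were called in H929 in these 6 fits. In OPM2, 5, 3 and 6 members were called without DMSO replicates 1, 2 and 3, against 9.16%, 8.28% and 8.91% of all genes. The members called in either line kept their direction in all 12 fits that left out 1 library.

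**Figure D1:**
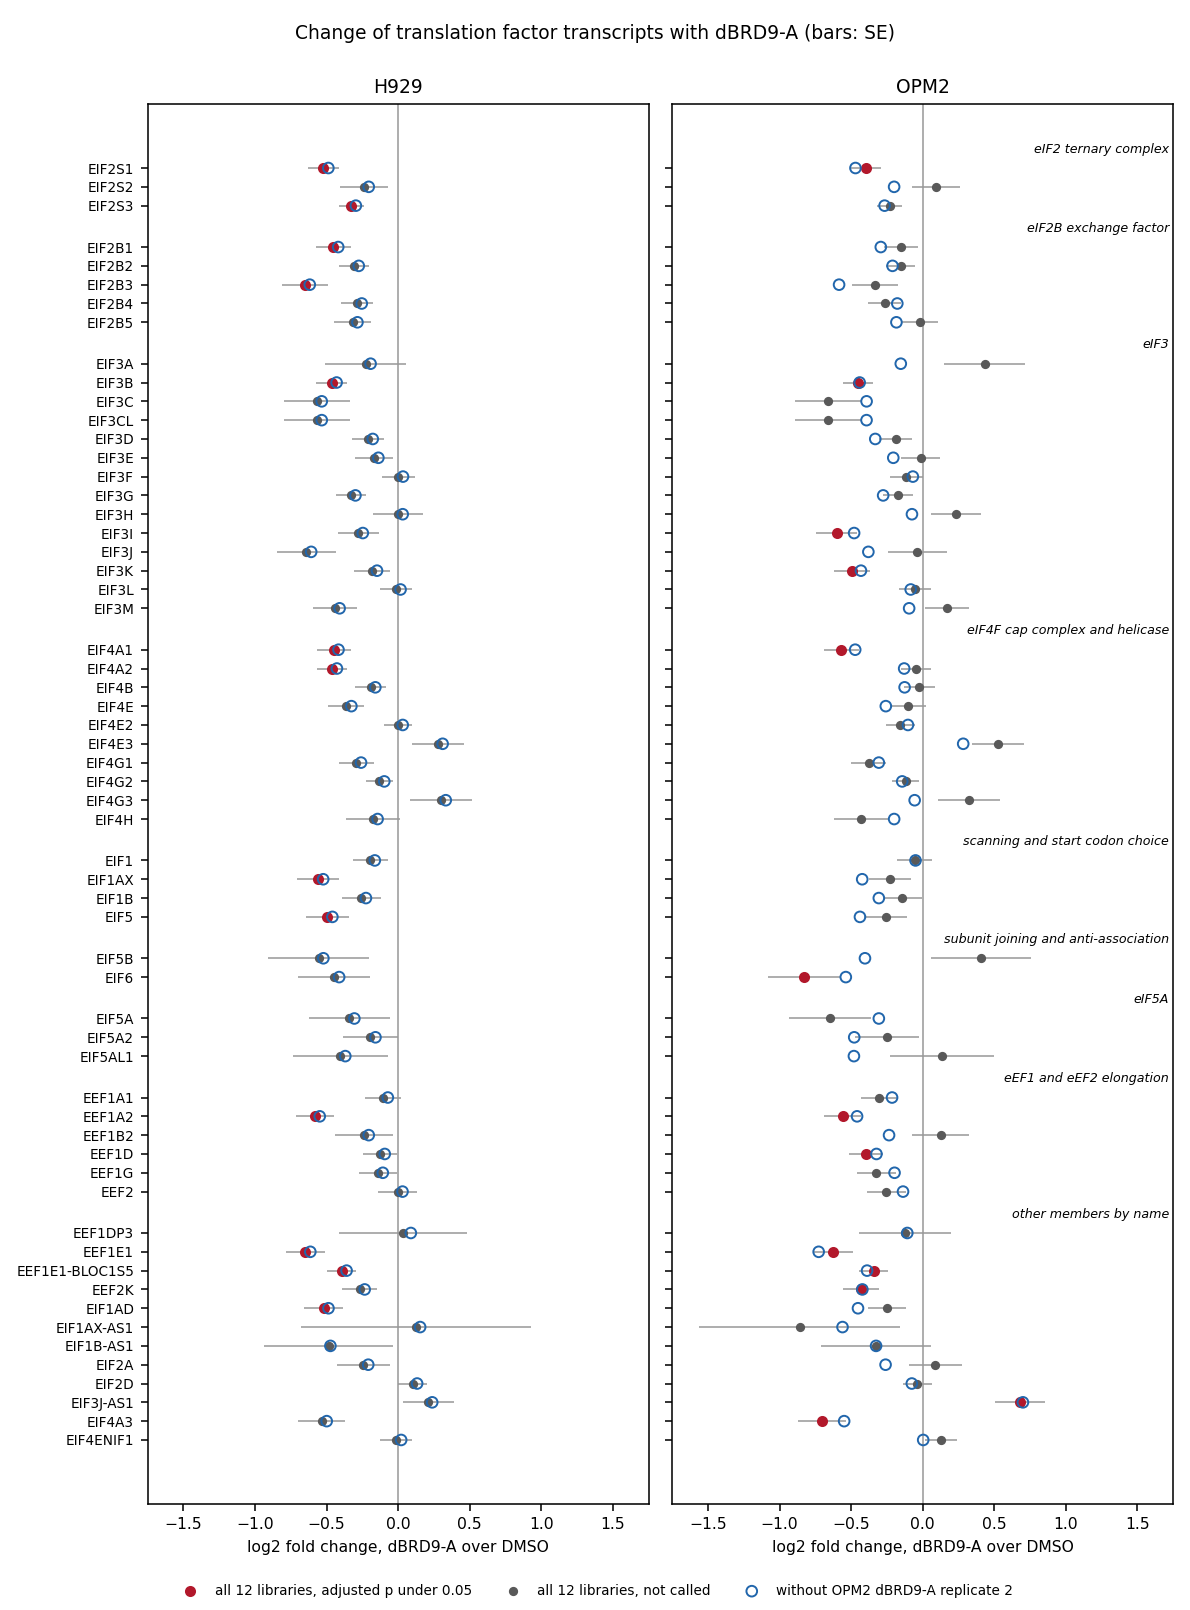
Log2 fold changes, dBRD9-A over DMSO, of the 59 members tested, in H929 (left) and OPM2 (right), grouped by complex. Filled points use all 12 libraries, red where the adjusted p was under 0.05, with bars of 1 SE, and open circles leave out OPM2 dBRD9-A replicate 2. Most points lie left of 0 in both lines, and several open circles in OPM2 lie far from their filled points.

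EIF2S1, EIF3B, EIF4A1, EEF1A2, EEF1E1 and the readthrough transcript EEF1E1-BLOC1S5 were called lower in both lines, which is 6 members, while 3.19% of all genes were called lower in both. Leaving out OPM2 dBRD9-A replicate 2 gave 23 members, EIF3C and its near-identical copy EIF3CL both among them, against 10.4% of all genes. EEF1E1 and EEF1E1-BLOC1S5 share exons and therefore reads, so they are not separate measurements.

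The eIF2 complex has the subunits EIF2S1 (alpha), EIF2S2 (beta) and EIF2S3 (gamma). EIF2S1 is the subunit that stress kinases phosphorylate to shut down initiation. In H929, EIF2S1 was at 179, 171 and 204 CPM with dBRD9-A, against 251, 291 and 253 CPM in DMSO. In OPM2, EIF2S1 was at 194, 215 and 189 CPM with dBRD9-A, against 255, 265 and 269 CPM in DMSO. The groups did not overlap in either line, and the log2 fold change was -0.52 ± 0.11 (SE, adjusted p = 0.00849) in H929 and -0.40 ± 0.11 (adjusted p = 0.0245) in OPM2. The H929 call was lost without dBRD9-A replicate 1 or DMSO replicate 2, and the OPM2 call without any 1 of the DMSO libraries or dBRD9-A replicate 1. EIF2S3, which binds the initiator tRNA and GTP, was at 531 ± 13.8 CPM with dBRD9-A, against 666 ± 8.43 CPM in DMSO (SD, n = 3 each) in H929. Its change in H929 was -0.33 ± 0.087 (adjusted p = 0.0279), and this call was lost without any single H929 library or OPM2 DMSO replicate 1. In OPM2, EIF2S3 had a log2 fold change of -0.23 (adjusted p = 0.0867) and was called without dBRD9-A replicate 2 (-0.27). EIF2S2 was not called in either line with all libraries (-0.24 in H929 and 0.09 in OPM2, where leaving out replicate 2 gave -0.20). In H929 it was called lower without OPM2 dBRD9-A replicate 2 (-0.21, edgeR adjusted p = 0.0461).

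eIF2B is the exchange factor that reloads eIF2 with GTP, and its subunits are encoded by EIF2B1 to EIF2B5. All 5 had every dBRD9-A library below every DMSO library in H929, as did 36 of the 59 members tested and 23.6% of all genes. The log2 fold changes of the 5 in H929 were -0.65 to -0.29, with a median of -0.32. EIF2B3, the gamma subunit of the catalytic part, was at 32.1, 35.9 and 35.1 CPM with dBRD9-A, against 50.95, 59.6 and 51.4 CPM in DMSO in H929. EIF2B1, the alpha subunit that senses phosphorylated eIF2, was at 81.6, 89.3 and 96.6 CPM with dBRD9-A, against 115, 133 and 118 CPM in DMSO in H929. Both were called, with log2 fold changes of -0.65 ± 0.16 for EIF2B3 (adjusted p = 0.0202) and -0.45 ± 0.12 for EIF2B1 (adjusted p = 0.0287). The EIF2B3 call was lost without any 1 H929 library except DMSO replicate 1, and the EIF2B1 call without any 1 except dBRD9-A replicate 3. Over the 12 fits with 1 library left out, the change was -0.65 to -0.55 for EIF2B3 and -0.49 to -0.36 for EIF2B1. EIF2B2, EIF2B4 and EIF2B5, at -0.31, -0.29 and -0.32, had adjusted p of 0.0716, 0.122 and 0.125. Without OPM2 dBRD9-A replicate 2 their H929 changes were -0.28, -0.25 and -0.28. In that fit all 5 subunits were called lower in H929, against 16.5% of all genes. In OPM2, 0 of the 5 were called by edgeR, the median was -0.16 and 1 had an unadjusted p under 0.05. EIF2B3 in OPM2 was at 17.2, 26.1 and 16.5 CPM with dBRD9-A, against 24.4, 25.98 and 24.8 CPM in DMSO, and replicate 2 alone reached the DMSO range. Without that replicate, EIF2B3 changed by -0.58 (adjusted p = 0.000298) and EIF2B1 by -0.29 (adjusted p = 0.0216) in OPM2.

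Of the scanning and start codon factors, EIF1AX (eIF1A, which keeps the scanning subunit open) and EIF5 (which makes eIF2 hydrolyse its GTP at the start codon) were called lower in H929, 2 of 4 members tested. EIF1AX was at 126, 102 and 129.6 CPM with dBRD9-A, against 166, 193 and 168 CPM in DMSO in H929, a change of -0.56 ± 0.15 (adjusted p = 0.027). EIF5 was at 197, 175 and 234 CPM with dBRD9-A, against 265, 319 and 269 CPM in DMSO in H929, a change of -0.49 ± 0.15 (adjusted p = 0.0493). For both genes every dBRD9-A library lay below every DMSO library. The EIF5 value was close to the threshold and was called in 4 of 12 fits with 1 library left out. EIF1AX was called in 7 of 12, all except those without any 1 DMSO library of H929 or dBRD9-A replicates 1 or 2. In OPM2 0 of the 4 were called by edgeR, none with an unadjusted p under 0.05, and without dBRD9-A replicate 2 EIF1AX (-0.42), EIF5 (-0.44) and EIF1B (-0.31) were called lower. EIF1, the factor that guards start codon choice, had -0.20 in H929 (adjusted p = 0.341) and -0.057 in OPM2 (adjusted p = 0.785).

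eIF4F joins the cap-binding protein eIF4E, the scaffold eIF4G and the RNA helicase eIF4A. EIF4A1, the main helicase, was at 986, 1159 and 1128 CPM with dBRD9-A, against 1512, 1561 and 1398 CPM in DMSO in H929. In OPM2, EIF4A1 was at 571, 445 and 566 CPM with dBRD9-A, against 776, 786 and 783 CPM in DMSO. The treated libraries lay below all DMSO libraries in both lines, and the changes were -0.45 ± 0.12 in H929 (adjusted p = 0.0276) and -0.57 ± 0.12 in OPM2 (adjusted p = 0.00779). The OPM2 call held in all 12 fits with 1 library left out, and the H929 call was lost without any 1 of the 6 H929 libraries, with a change of -0.46 to -0.35 over the 12 fits. EIF4A2, its close paralogue, was at 255, 236 and 259 CPM with dBRD9-A, against 334, 365 and 334 CPM in DMSO in H929, where the groups did not overlap. In OPM2, EIF4A2 was at 273, 304 and 254 CPM with dBRD9-A, against 271, 312 and 274 CPM in DMSO, and the groups overlapped. EIF4A2 fell in H929 (-0.46 ± 0.11, adjusted p = 0.0146), a call lost without H929 DMSO replicates 2 or 3 or dBRD9-A replicates 1 or 2, and changed by -0.045 ± 0.11 in OPM2 (adjusted p = 0.81).

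The cap-binding proteins were not called with all libraries. EIF4E, the canonical one, was at 79.9, 74.1 and 87.02 CPM with dBRD9-A, against 98.4, 109 and 102 CPM in DMSO in H929. In OPM2, EIF4E was at 103, 129 and 94.6 CPM with dBRD9-A, against 111, 116 and 125 CPM in DMSO. The H929 groups did not overlap and the OPM2 groups did, with log2 fold changes of -0.36 ± 0.13 in H929 (adjusted p = 0.0808) and -0.10 ± 0.13 in OPM2 (adjusted p = 0.601). EIF4E was called lower in both lines once OPM2 dBRD9-A replicate 2 was left out (-0.33 in H929 and -0.26 in OPM2). EIF4E2, which binds the cap but represses translation, was at 109, 99.7 and 114 CPM with dBRD9-A, against 105, 113 and 106 CPM in DMSO in H929. In OPM2, EIF4E2 was at 98.8, 82.8 and 92.3 CPM with dBRD9-A, against 103, 101 and 101 CPM in DMSO. Its groups overlapped in H929 and lay just apart in OPM2, with -0.16 (adjusted p = 0.3; -0.10 without replicate 2). EIF4E3, the rarest of these 3, was at 12.02, 10.4 and 9.70 CPM with dBRD9-A, against 8.53, 9.06 and 8.87 CPM in DMSO in H929. In OPM2, EIF4E3 was at 11.8, 17.8 and 11.3 CPM with dBRD9-A, against 9.28, 8.25 and 10.7 CPM in DMSO. Every dBRD9-A library of EIF4E3 lay above every DMSO library in both lines, the opposite side from EIF4E in H929. The changes of EIF4E3 were 0.28 ± 0.18 in H929 (adjusted p = 0.36) and 0.53 ± 0.18 in OPM2 (adjusted p = 0.0631), and without OPM2 dBRD9-A replicate 2 EIF4E3 was called in H929 (0.31) and not in OPM2 (0.28).

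Among the scaffolds, EIF4G1, the main partner of eIF4E, was at 851, 822 and 943 CPM with dBRD9-A, against 919, 1146 and 1139.7 CPM in DMSO in H929. In OPM2, EIF4G1 was at 785, 696 and 883 CPM with dBRD9-A, against 1023, 1015 and 1031 CPM in DMSO. The OPM2 groups did not overlap, and in H929 DMSO replicate 1 lay below dBRD9-A replicate 3. EIF4G1 had a log2 fold change of -0.29 ± 0.12 in H929 (adjusted p = 0.145) and -0.38 ± 0.12 in OPM2 (adjusted p = 0.0538). It was called in both lines without OPM2 dBRD9-A replicate 2 (-0.26 in H929 and -0.31 in OPM2). EIF4G2, which lacks the eIF4E-binding region, was at 1339.5, 1307 and 1415 CPM with dBRD9-A, against 1430.2, 1552 and 1463 CPM in DMSO in H929. In OPM2, EIF4G2 was at 1724, 1801 and 1789.6 CPM with dBRD9-A, against 1909, 1881 and 1984 CPM in DMSO. The groups of EIF4G2 lay apart by small steps in both lines, with -0.13 in H929 and -0.12 in OPM2, and it was called in none of the 22 alternatives. EIF4G3, a second scaffold of the EIF4G1 kind, was at 179.8, 134 and 166 CPM with dBRD9-A, against 120.2, 128 and 142 CPM in DMSO in H929. In OPM2, EIF4G3 was at 78.9, 138 and 68.3 CPM with dBRD9-A, against 80.6, 75.7 and 71.4 CPM in DMSO. Replicate 2 was the highest OPM2 library, the groups overlapped in both lines, and the OPM2 value of 0.32 became -0.056 without that replicate. The H929 value was 0.30, called in 2 of the 22 alternatives, without OPM2 dBRD9-A replicate 2 and with limma-voom. The helicase cofactors EIF4B and EIF4H were not called in either line (-0.19 and -0.18 in H929, -0.023 and -0.43 in OPM2). The OPM2 values were -0.13 for EIF4B and -0.20 for EIF4H without dBRD9-A replicate 2. Over the whole eIF4F group, 2 of 10 members tested were called lower in H929 and 1 of 10 in OPM2.

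**Figure D2:**
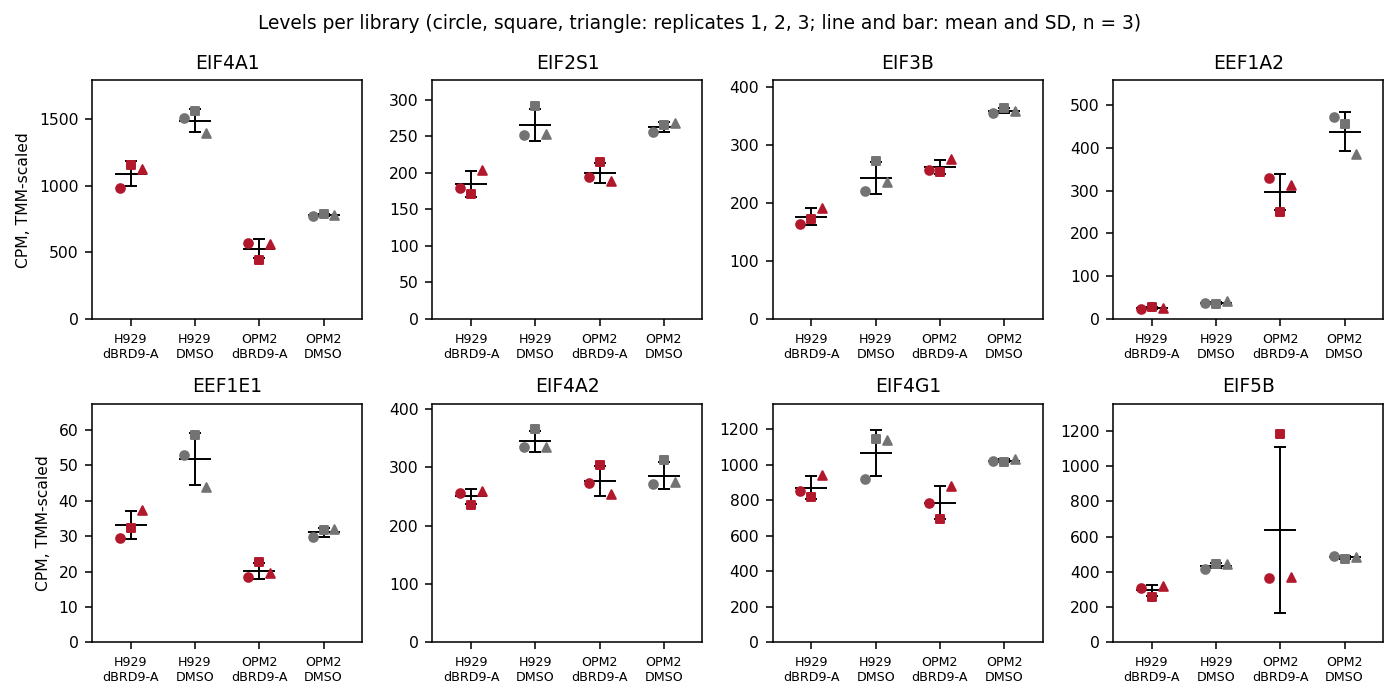
TMM-scaled CPM of 8 members in each library of H929 and OPM2, dBRD9-A in red and DMSO in grey, with the mean and SD of 3 libraries per group. EIF4A1, EIF2S1, EIF3B, EEF1A2 and EEF1E1 show all dBRD9-A libraries below the DMSO libraries of their line, EIF4A2 does so in H929 only, and for EIF5B the OPM2 dBRD9-A replicate 2 (square) stands far above its group mates.

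eIF3 is the largest initiation factor and bridges the small subunit and eIF4G. Of its 14 members by name, 1 was called lower in H929 and 3 in OPM2, with a median log2 fold change of -0.25 in H929 and -0.14 in OPM2. EIF3B, a core scaffold subunit, was at 163, 173 and 192 CPM with dBRD9-A, against 220.2, 273 and 236 CPM in DMSO in H929. In OPM2, EIF3B was at 257, 254 and 276 CPM with dBRD9-A, against 355, 364 and 358 CPM in DMSO. The groups lay apart in both lines, with changes of -0.46 ± 0.11 in H929 (adjusted p = 0.0152) and -0.45 ± 0.11 in OPM2 (adjusted p = 0.0141). The OPM2 call was lost without DMSO replicate 2, and the H929 call without dBRD9-A replicates 1 or 2 or DMSO replicates 2 or 3. With a trend in GC content removed, EIF3B had a log2 fold change of -0.39 in H929 (adjusted p = 0.0518) and -0.19 in OPM2 (adjusted p = 0.304) and was called in neither. EIF3I, which binds EIF3B, was at 179, 128 and 169 CPM with dBRD9-A, against 240.4, 254 and 226 CPM in DMSO in OPM2. EIF3K, a small peripheral subunit, was at 173, 139 and 154 CPM with dBRD9-A, against 223, 222 and 209.9 CPM in DMSO in OPM2. Both were called in OPM2 (-0.60 ± 0.14 for EIF3I, adjusted p = 0.0142, and -0.49 ± 0.13 for EIF3K, adjusted p = 0.0197) and not in H929 (-0.28 and -0.18, with overlapping groups). Both OPM2 calls were lost without DMSO replicate 2, and that of EIF3K also without DMSO replicate 1.

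The eIF3 subunits did not all move alike. EIF3F, EIF3H and EIF3L had changes of 0.0013, -0.00091 and -0.016 in H929, and of -0.11, 0.23 and -0.053 in OPM2, and were called in none of the 22 alternatives in either line. Their OPM2 changes were -0.069, -0.075 and -0.084 once dBRD9-A replicate 2 was left out. EIF3J, a loosely bound subunit, had -0.64 in H929 (adjusted p = 0.0604) and -0.037 in OPM2, and was called in both lines without OPM2 dBRD9-A replicate 2 (-0.61 and -0.38). EIF3A, the largest scaffold, was at 804, 1984 and 806 CPM with dBRD9-A, against 886, 866 and 911 CPM in DMSO in OPM2, and its change there was 0.43 with replicate 2 and -0.15 without it. EIF3C and EIF3CL are near-identical copies whose counts differed by at most 0.0614% in any library, so they are 1 measurement that cannot be assigned to either gene. Its log2 fold change was -0.57 in H929 and -0.66 in OPM2 (-0.39 without replicate 2), and it was called in neither with all libraries. EIF3D, EIF3E, EIF3G and EIF3M were not called with all libraries. When OPM2 dBRD9-A replicate 2 was left out, 6 of the 14 were called lower in H929 and 8 in OPM2. EIF3C and EIF3CL, though 1 measurement, are both included in each of these counts.

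EIF5B, the GTPase that joins the ribosomal subunits, and EIF6, which holds the large subunit apart until it is needed, both depended in OPM2 on which libraries were used. EIF6 was at 63.7, 27.2 and 64.6 CPM with dBRD9-A, against 91.6, 95.6 and 89.9 CPM in DMSO in OPM2. Every dBRD9-A library of EIF6 was below DMSO, replicate 2 by the most, and the change of -0.83 ± 0.25 (adjusted p = 0.0418) became -0.54 (adjusted p = 0.00192) without replicate 2. EIF6 was called in 3 of 12 fits with 1 library left out, those without an OPM2 dBRD9-A library. EIF5B was at 364, 1180.4 and 371 CPM with dBRD9-A, against 488, 471 and 487 CPM in DMSO in OPM2. Replicates 1 and 3 lay below DMSO and replicate 2 far above it, and the change of 0.41 ± 0.35 (adjusted p = 0.449) became -0.40 (adjusted p = 0.00455) without replicate 2. In H929, EIF5B had a log2 fold change of -0.56 and EIF6 one of -0.45, and neither was called with all libraries (SE 0.35 and 0.25). Without OPM2 dBRD9-A replicate 2 the H929 changes of EIF5B and EIF6 were -0.52 and -0.41 (SE 0.084 and 0.097), and both were called.

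EIF5A, which like its paralogue EIF5A2 carries the modified amino acid hypusine, was at 739, 754 and 825 CPM with dBRD9-A, against 928, 1069.9 and 936 CPM in DMSO in H929. In OPM2, EIF5A was at 509, 189 and 564 CPM with dBRD9-A, against 671, 639 and 664 CPM in DMSO. The groups lay apart in both lines, with replicate 2 the lowest OPM2 library, and the changes of -0.34 ± 0.29 in H929 (adjusted p = 0.495) and -0.64 ± 0.29 in OPM2 (adjusted p = 0.138) were not called. Without OPM2 dBRD9-A replicate 2 both were -0.31 and called (adjusted p = 0.009 in H929 and 0.0196 in OPM2). EIF5A2 was at 14.1, 9.22 and 12.5 CPM with dBRD9-A, against 12.5, 13.5 and 14.9 CPM in DMSO in H929. In OPM2, EIF5A2 was at 0.858, 1.43 and 0.875 CPM with dBRD9-A, against 1.21, 1.18 and 1.21 CPM in DMSO. The groups of EIF5A2 overlapped in both lines, and it was called in no alternative. EIF5AL1 is a near copy of EIF5A, so its low values (1.61 ± 1.11 CPM with dBRD9-A, against 1.37 ± 0.152 CPM in DMSO in OPM2, SD, n = 3 each) may hold reads of EIF5A.

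Of the elongation factors, 1 of 6 was called lower in H929 and 2 of 6 in OPM2. EEF1A1, the common tRNA carrier, was at 13091, 13643 and 12531 CPM with dBRD9-A, against 15324, 13354 and 13533 CPM in DMSO in H929. In OPM2, EEF1A1 was at 8382, 6455 and 8002 CPM with dBRD9-A, against 9226, 9841 and 9205 CPM in DMSO. The groups overlapped in H929 and not in OPM2, with -0.10 ± 0.13 in H929 (adjusted p = 0.652) and -0.31 ± 0.13 in OPM2 (adjusted p = 0.109). EEF1A2, the paralogue normally restricted to muscle, heart and brain, was at 23.7, 27.5 and 25.1 CPM with dBRD9-A, against 36.3, 36.3 and 41.4 CPM in DMSO in H929. In OPM2, EEF1A2 was at 329.8, 250.1 and 314 CPM with dBRD9-A, against 472, 457 and 386 CPM in DMSO. The groups of EEF1A2 lay apart in both lines, and it was called in both, at -0.58 ± 0.13 in H929 (adjusted p = 0.0133) and -0.56 ± 0.13 in OPM2 (adjusted p = 0.0126). The H929 call was lost without DMSO replicates 2 or 3 or dBRD9-A replicates 1 or 3, and the OPM2 call without DMSO replicates 1 or 2. EEF1D, a subunit of the exchange complex that reloads eEF1A, was at 133, 104 and 120.3 CPM with dBRD9-A, against 161, 167 and 143 CPM in DMSO in OPM2 and was called (-0.40 ± 0.12, adjusted p = 0.0421). EEF1D had -0.13 in H929, and its OPM2 call was lost in 6 of 12 fits with 1 library left out, among them those without any 1 DMSO library. With a GC trend removed, the OPM2 changes of EEF1A2 and EEF1D were 0.059 and 0.20, no elongation factor was called in OPM2 and their median was 0.068, against 0.080 over all genes, so the direction in OPM2 depends on that setting. In H929 the same setting also left no elongation factor called, with a median of -0.063 against 0.066 over all genes, and EEF1A2 at -0.43 (adjusted p = 0.187).

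EEF2, the translocase, was at 6344, 7539 and 6246 CPM with dBRD9-A, against 7173, 6514 and 6465 CPM in DMSO in H929. In OPM2, EEF2 was at 2312, 1748 and 2377 CPM with dBRD9-A, against 2673, 2568 and 2434 CPM in DMSO. The H929 groups overlapped and the OPM2 groups did not, by a small step, and the changes were -0.0016 in H929 (SE 0.14) and -0.25 ± 0.14 in OPM2 (adjusted p = 0.217; -0.14 without replicate 2). EEF2K, the kinase that phosphorylates eEF2 and slows elongation, was at 42.6, 37.8 and 48.9 CPM with dBRD9-A, against 47.6, 58.2 and 50.1 CPM in DMSO in H929. In OPM2, EEF2K was at 48.96, 51.3 and 58.6 CPM with dBRD9-A, against 72.1, 70.99 and 71.3 CPM in DMSO. It fell in OPM2 (-0.43 ± 0.12, adjusted p = 0.0334), with no overlap, and had -0.27 ± 0.12 in H929 (adjusted p = 0.185). The OPM2 call was lost without any 1 DMSO library or dBRD9-A replicate 1. EEF1G and EEF1B2, further subunits of the exchange complex, were not called in either line.

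Some members carry the name of a translation factor but act elsewhere. EEF1E1, a scaffold of the aminoacyl-tRNA synthetase complex, was at 29.6, 32.2 and 37.3 CPM with dBRD9-A, against 53.04, 58.6 and 43.8 CPM in DMSO in H929. In OPM2, EEF1E1 was at 18.5, 22.7 and 19.5 CPM with dBRD9-A, against 29.7, 31.9 and 31.9 CPM in DMSO. The groups did not overlap, the changes were -0.65 ± 0.14 in H929 (adjusted p = 0.00982) and -0.63 ± 0.14 in OPM2 (adjusted p = 0.00995), and EEF1E1 was the only member called in OPM2 in all 22 alternatives. Its H929 call was lost without DMSO replicate 2 or dBRD9-A replicate 1. The readthrough entry EEF1E1-BLOC1S5 was at 52.2, 51.9 and 58.5 CPM with dBRD9-A, against 71.2, 77.6 and 64.98 CPM in DMSO in H929 and at 32.8, 35.03 and 32.6 CPM with dBRD9-A, against 40.7, 42.6 and 44.1 CPM in DMSO in OPM2. Its levels lay apart in the same direction, with -0.39 in H929 and -0.34 in OPM2.

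EIF4A3, the helicase of the exon junction complex, was at 79.9, 53.9 and 81.6 CPM with dBRD9-A, against 119, 112 and 120.1 CPM in DMSO in OPM2. EIF4A3 was called in OPM2 (-0.71 ± 0.17, adjusted p = 0.0134; -0.55 without dBRD9-A replicate 2), a call lost without DMSO replicate 3. In H929 it was at 91.1 ± 10.6 CPM with dBRD9-A, against 132 ± 20.2 CPM in DMSO (SD, n = 3 each), a change of -0.53 ± 0.17 with adjusted p = 0.053, not called with all libraries and called without OPM2 dBRD9-A replicate 2 (-0.50). EIF1AD, named for its eIF1A-like domain, was at 42.7, 43.9 and 44.5 CPM with dBRD9-A, against 58.6, 66.7 and 62.9 CPM in DMSO in H929 and fell there (-0.52 ± 0.14, adjusted p = 0.026). The EIF1AD call was lost without any 1 H929 library except DMSO replicate 1, and in OPM2 it had a log2 fold change of -0.25 with dBRD9-A replicate 2 and -0.45 without it. The non-coding EIF3J-AS1 was at 8.31, 7.07 and 6.87 CPM with dBRD9-A, against 4.78, 4.92 and 4.20 CPM in DMSO in OPM2. With all libraries it was the only member called higher, 0.68 ± 0.17 (adjusted p = 0.0193), a call lost without any 1 OPM2 DMSO library or dBRD9-A replicate 1, and it had 0.21 in H929. No source used here says whether reads were counted by strand, so EIF3J-AS1 and EIF3J cannot be told apart where they overlap. EIF2A and EIF2D, which can place initiator tRNA without eIF2, and EIF4ENIF1, which carries eIF4E into the nucleus, were not called in either line with all libraries, and EIF2A was called lower in both without OPM2 dBRD9-A replicate 2 (-0.21 in H929 and -0.26 in OPM2). EEF1DP3, EIF1AX-AS1 and EIF1B-AS1 were low and not called.

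OPM2 dBRD9-A replicate 2 departed from its group mates by amounts that followed base composition within this set too. Its CPM was 3.21 times the mean of replicates 1 and 3 for EIF5B, 2.90 for EIF5AL1, 2.46 for EIF3A and 1.87 for EIF4G3. At the other end the ratio was 0.353 for EIF5A, 0.423 for EIF6, 0.451 for EIF3C and 0.535 for EIF4H. Across 58 members, leaving out EIF3CL, the log2 ratio with 0.25 CPM added fell with GC content (Pearson -0.579, Spearman -0.629), a description of 1 library whose genes share its depth and handling. The OPM2 changes themselves fell with GC content across the same members (Spearman -0.379), which was 0.0467 without replicate 2.

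**Figure D3:**
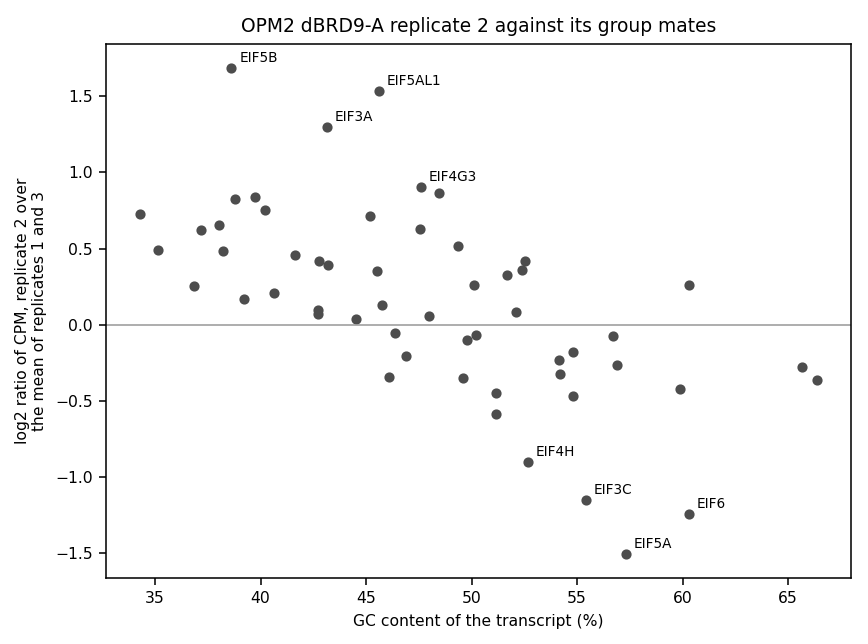
Log2 ratio of CPM in OPM2 dBRD9-A replicate 2 over the mean of replicates 1 and 3, against the GC content (%) of the transcript, for 55 members with at least 30 counts in every library. The points slope downward, with EIF5B highest near the low end of GC content and EIF5A lowest toward the high end.

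The responses of the lines were compared directly as the H929 change minus the OPM2 change. In this test 0 of 59 members were called by edgeR, while 0.579% of all genes were called, and 2 members had an unadjusted p under 0.05. DESeq2 and limma-voom also called 0, with 2 and 4 members at an unadjusted p under 0.05. The 2 were EIF3M (-0.61 ± 0.22, unadjusted p = 0.0165, adjusted p = 0.395) and EIF4A2 (-0.42 ± 0.15, unadjusted p = 0.0165, adjusted p = 0.395), both more negative in H929. Without OPM2 dBRD9-A replicate 2 their differences were -0.31 and -0.30, and 0 members were called by edgeR with 3 at an unadjusted p under 0.05, against 3.04% of all genes called. EIF2B1, EIF2B3, EIF1AX and EIF5, called in H929 and not in OPM2, therefore were not shown to differ between the lines. Across 58 members the 2 sets of log2 fold changes had a Pearson correlation of 0.413 and a Spearman correlation of 0.367, and 0.700 and 0.675 without replicate 2. These are given as a description, since members share libraries and scaling.

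The lines also differed in the amounts of these transcripts without dBRD9-A, about as often as in those of genes in general. In DMSO, 36 of 59 members were called between H929 and OPM2, 22 higher and 14 lower in H929, against 60.2% of all genes, 32.6% higher and 27.5% lower. Scaled by library size alone the split was 17 higher and 18 lower, and the median over all genes moved to -0.074, against 0.049 with TMM scaling. EEF1A2 was the most unequal: it was at 17.5 ± 2.03 TPM in H929 and 226 ± 24.00 TPM in OPM2, a log2 difference of -3.53 ± 0.14 (adjusted p = 9.25e-10). EIF5A2 lay the other way, at 2.28 ± 0.289 TPM in H929 and 0.224 ± 0.00160 TPM in OPM2 (3.51 ± 0.22, adjusted p = 3.35e-08). EEF2 was at 1960.3 ± 79.4 TPM in H929 and 838 ± 38.9 TPM in OPM2 (1.39 ± 0.14, adjusted p = 2.69e-06). EIF4A1 was at 732 ± 21.6 TPM in H929 and 431 ± 5.51 TPM in OPM2 (0.93 ± 0.12, adjusted p = 2.46e-05).

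Within eIF3 the lines differed by subunit. EIF3E (1.42), EIF3H (1.26) and EIF3G (1.14) were higher in H929 with TMM scaling and with library size alone. EIF3B (-0.56) and EIF3M (-0.47) were lower in H929 in both. EIF3E was at 368 ± 12.3 TPM in H929 and 154 ± 8.82 TPM in OPM2. EIF2B3 (1.11) and EIF2B4 (0.87) were higher in H929, and the other eIF2B subunits were not called with all libraries. Of the 21 alternatives, EIF2B2 was called lower in 9 and EIF2B1 higher in 3. EIF2D (-0.99), EIF1B (-0.69) and EEF1DP3 (-3.25) were lower in H929. Of these differences, that of EIF3M was called in 20 of the 21 alternatives run for this comparison, and those of EIF3E, EIF3H, EIF3G, EIF3B, EIF2B3, EIF2B4, EIF2D, EIF1B and EEF1DP3 in all 21.

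Per transcript length, the deposited TPM values put EEF1A1, EEF2 and EEF1G on top. EEF1A1 was at 3692 ± 225 TPM in H929 and 2776 ± 127 TPM in OPM2, and EEF1G was at 1184 ± 77.4 TPM in H929 and 994 ± 43.9 TPM in OPM2, below EEF2 in H929 and above it in OPM2. Within eIF4F the helicase was far above the cap-binding proteins: against the EIF4A1 values above, EIF4E was at 19.7 ± 1.27 TPM in H929 and 25.01 ± 1.58 TPM in OPM2, EIF4E2 at 27.5 ± 1.42 TPM in H929 and 29.04 ± 0.324 TPM in OPM2 and EIF4E3 at 1.34 ± 0.0758 TPM in H929 and 1.60 ± 0.201 TPM in OPM2. EIF4G2 at 349.5 ± 19.1 TPM in H929 and 509 ± 12.3 TPM in OPM2 exceeded EIF4G1 at 178 ± 26.2 TPM in H929 and 191 ± 1.02 TPM in OPM2 and EIF4G3 at 18.4 ± 2.29 TPM in H929 and 12.1 ± 0.711 TPM in OPM2. EIF5A was at 665 ± 52.6 TPM in H929 and 502 ± 9.28 TPM in OPM2, and its paralogue EIF5A2 was near the bottom in both lines. The regulator kinase EEF2K was at 6.47 ± 0.698 TPM in H929 and 9.97 ± 0.0441 TPM in OPM2. All values are means ± SD of 3 libraries, and neighbours such as EIF4E2 and EIF4E in OPM2 lie close together.

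**Figure D4:**
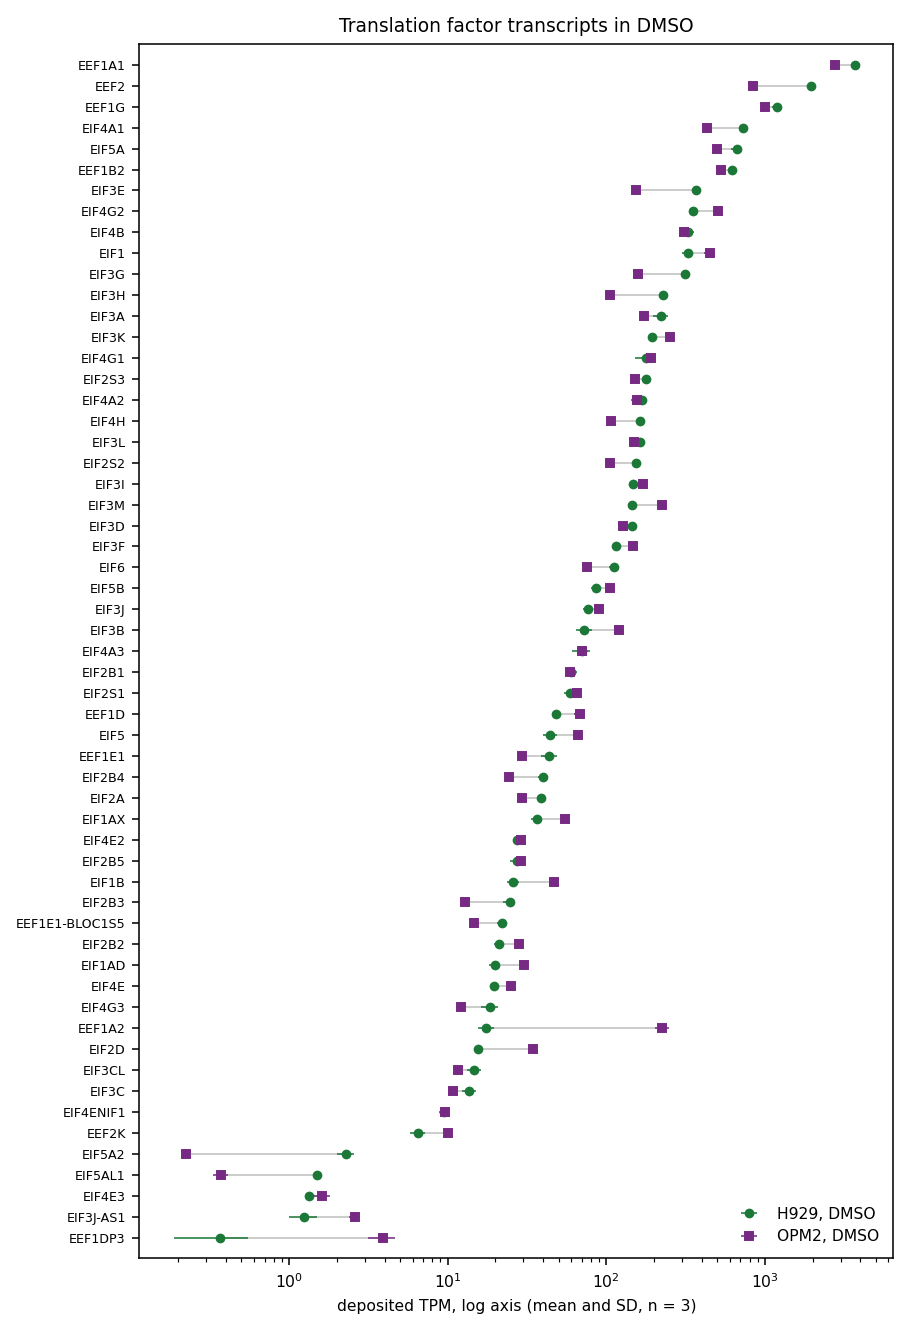
Deposited TPM (log axis) of 57 members with a mean of at least 1 TPM in either line, in H929 with DMSO (green circles) and OPM2 with DMSO (purple squares), mean and SD of 3 libraries. EEF1A1, EEF2 and EEF1G lead in both lines, and EEF1A2 and EIF5A2 show wide gaps in opposite directions.

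The changes were set beside the annotated starts shown above. In H929 the median log2 fold change of the 12 pyrimidine-start members was -0.20 and that of the 36 tested members with other starts was -0.35, with 2 of 12 and 10 of 36 called lower. In OPM2 the medians were -0.080 and -0.26, with 1 of 12 and 9 of 36 called lower. Without OPM2 dBRD9-A replicate 2 the medians were -0.17 and -0.32 in H929, and -0.18 and -0.38 in OPM2, with 4 of 12 and 21 of 36 called lower in each line. The pyrimidine-start members thus had the smaller median fall in each line in both of these fits, which is a description of lists with no test. Tested members without a promoter entry are missing from these lists and from those of the motif below. Among them are EEF1A2, called lower in both lines, EEF1D, called lower in OPM2, and EIF3J-AS1, called higher in OPM2. EIF2S2, EIF3A, EIF3E, EIF3G, EIF3H and EIF3L are also missing, and were called in neither line with all libraries. The split was not made with the GC trend removed. With all libraries, the pyrimidine-start members that were called were EIF2S3 and EIF4A2 in H929 and EIF3K in OPM2.

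**Figure D5:**
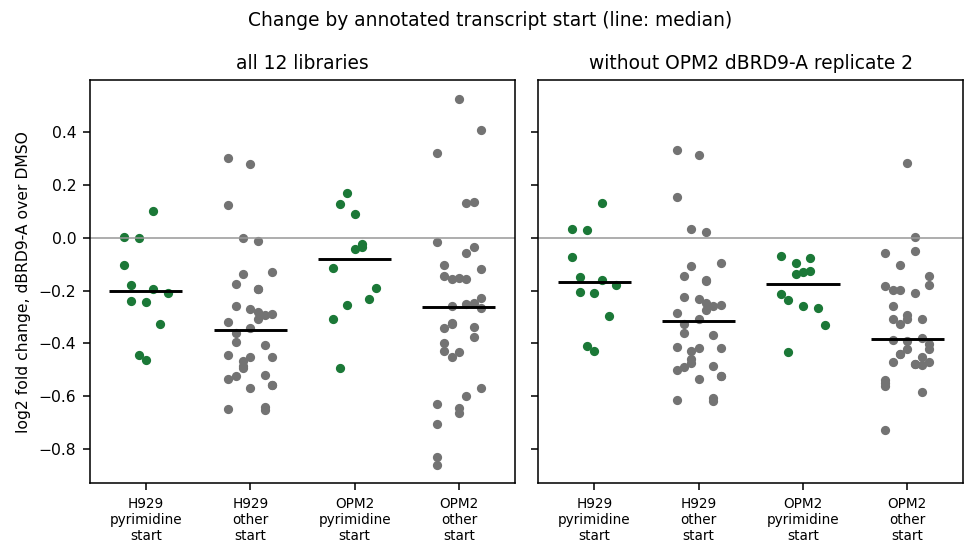
Log2 fold changes, dBRD9-A over DMSO, of members with a pyrimidine start (green, 12 members) or another annotated start (grey, 36 members) in H929 and OPM2, with all 12 libraries (left) and without OPM2 dBRD9-A replicate 2 (right). Black lines are medians, and in each panel and line the green median lies above the grey one.

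The same 300-base windows, 250 bases before to 50 after each RefSeq start, were searched for CACGTG, the E-box that MYC and related factors bind. The motif reads the same on both strands. It was found for 12 of the 50 members matched (24.0%), against 8.77% of 27305 genes, whether or not these were expressed in these cells. EIF1B and EIF1B-AS1 lie head to head and hold the same site. The MYC transcript was at 64.5 ± 21.3 CPM with dBRD9-A, against 212 ± 71.6 CPM in DMSO in H929 (SD, n = 3 each), a log2 fold change of -1.72 ± 0.26 (adjusted p = 0.00183). In OPM2, MYC was at 115 ± 18.9 CPM with dBRD9-A, against 291 ± 6.40 CPM in DMSO, a log2 fold change of -1.33 ± 0.26 (adjusted p = 0.00544). Members with the motif had a median change of -0.26 in H929 and those without it -0.32, with 1 of 12 and 11 of 36 called lower. In OPM2 the medians were -0.33 and -0.21, with 3 of 12 and 7 of 36 called lower, and -0.32 and -0.28 without dBRD9-A replicate 2. Members with the motif thus had the smaller median fall in H929 and the larger one in OPM2, again with no test. The 250 bases before the start are given for the 4 motif members that were called lower, EIF2B3 in H929 and EIF4A3, EIF3K and EEF2K in OPM2, with CACGTG in capitals.
EIF2B3, chr1:44986596-44986845, minus strand: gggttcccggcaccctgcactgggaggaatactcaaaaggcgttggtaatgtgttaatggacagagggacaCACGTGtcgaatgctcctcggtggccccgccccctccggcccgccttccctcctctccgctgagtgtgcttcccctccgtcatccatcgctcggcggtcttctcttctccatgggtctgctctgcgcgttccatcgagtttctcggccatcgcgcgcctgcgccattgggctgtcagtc
EIF4A3, chr17:80147129-80147378, minus strand: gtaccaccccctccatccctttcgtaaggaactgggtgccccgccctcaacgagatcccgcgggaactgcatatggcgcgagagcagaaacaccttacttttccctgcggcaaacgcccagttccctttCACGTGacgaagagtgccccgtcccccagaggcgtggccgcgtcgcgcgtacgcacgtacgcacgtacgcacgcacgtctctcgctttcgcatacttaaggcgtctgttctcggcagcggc
EIF3K, chr19:38618938-38619187, plus strand: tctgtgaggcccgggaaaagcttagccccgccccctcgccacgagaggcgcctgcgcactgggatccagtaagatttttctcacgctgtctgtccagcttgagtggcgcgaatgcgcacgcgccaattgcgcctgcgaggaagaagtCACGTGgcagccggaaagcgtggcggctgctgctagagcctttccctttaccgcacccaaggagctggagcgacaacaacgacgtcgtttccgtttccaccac
EEF2K, chr16:22206028-22206277, plus strand: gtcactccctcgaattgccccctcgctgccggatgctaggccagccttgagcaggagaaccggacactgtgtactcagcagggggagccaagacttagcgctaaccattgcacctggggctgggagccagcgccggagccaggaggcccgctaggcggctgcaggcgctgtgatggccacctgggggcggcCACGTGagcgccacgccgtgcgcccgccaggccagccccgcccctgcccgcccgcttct
The motif lay 179 bases before the start of EIF2B3, 121 before EIF4A3, 103 before EIF3K and 59 before EEF2K.

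Summed over all members, the translation factors took 3.50, 3.74 and 3.46% of counts with dBRD9-A, against 3.90, 3.61 and 3.66% with DMSO, in H929. In OPM2 it took 2.69, 2.38 and 2.63% with dBRD9-A, against 2.88, 2.98 and 2.81% with DMSO. The H929 groups overlapped through dBRD9-A replicate 2, and the OPM2 groups did not. The counts of EEF1A1 can include reads of its processed copies.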

How the data were processed

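STAR, featureCounts, hg19 and GRCh37 are named in the submitters' processing notes, and neither versions nor a strand setting are. The deposited counts are whole numbers per RefSeq transcript that the authors did not normalise (51780 transcripts, 25680 symbols). The deposited TPM values, scaled by the authors for length and depth, were used only to compare levels between genes. The members and gene lists were chosen with earlier results of these data known.

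The transcript with the highest mean count stood for each symbol. Counts were filtered with filterByExpr by group (16408 genes left) and scaled with TMM factors. The quasi-likelihood test of edgeR 4.0.16 (R 4.3.3) was fitted to the 4 groups of all 12 libraries together, leaving 8 residual degrees of freedom. Benjamini-Hochberg adjustment ran over all genes, and an adjusted p under 0.05 was called. CPM are TMM-scaled, and SDs are over 3 libraries. The labels do not tell whether replicates are separate cultures, so p-values reflect only how these libraries varied, and that variation may be technical. Values per library were given for up to 12 called members per line, by size of change, and for fixed paralogue sets. Alternatives were RLE factors, library size alone, DESeq2 1.42.0, limma-voom 3.58.1 with a weight per library, omission of the low-count filter, at least 1 CPM in 3 libraries as the filter, each line alone, each library left out, a replicate block, and a GC trend removed (a GC value was found for 98.4% of genes), alone or with the block. The tests were checked on simulated counts with the same spread for all genes. Those counts had neither a GC trend nor a library that stood apart, so the check does not cover OPM2 dBRD9-A replicate 2. Replicate numbers were not taken as pairs. Starts and promoter windows came from RefSeq on GRCh38.p14, another build than the files, by symbol.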

Additional observations from a re-analysis of the deposited data

How the results depend on the processing

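With all libraries, 13 members were called in each line. In OPM2 the count was 12 with RLE factors or library size alone, 19 with DESeq2, 38 with limma-voom, 11 with no filter, 12 with the 1 CPM filter, 2 with OPM2 fitted alone and 16 with the GC trend removed, and 3 (without DMSO replicate 2) to 30 (without dBRD9-A replicate 2) with 1 library left out. In H929 it was 11 with RLE factors, 8 with library size alone, 16 with DESeq2, 33 with limma-voom, 9 with no filter, 12 with the 1 CPM filter, 27 with H929 fitted alone and 20 with the GC trend removed, and 0 (without dBRD9-A replicate 1 or DMSO replicate 2) to 31 (without OPM2 dBRD9-A replicate 2) with 1 library left out. The shares of all genes called moved too. In OPM2 they were 17.3% with RLE factors, 17.8% with library size alone, 11.3% with no filter and 20.8% with the 1 CPM filter. The same settings gave 12.6%, 13.5%, 8.16% and 14.9% in H929. With library size alone, the 8 of 59 members called in H929, all lower, were about as frequent as all genes called in either direction. Shares in OPM2 were 24.9% with DESeq2, 44.1% with limma-voom, 5.82% with the line fitted alone and 26.9% with the GC trend removed. In H929 these were 19.2%, 36.0%, 32.3% and 22.5%. The difference of the responses had 0 in all settings run. The lines in DMSO had 29 (without OPM2 DMSO replicate 3) to 50 (with limma-voom), against 52.9% and 78.1% of all genes in these settings. The cause of these shifts was not tested.

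With the replicate block, 2 members were called in H929, 5 in OPM2, 0 for the difference and 35 between the lines, against 6.78%, 10.5%, 0.158% and 57.7% of all genes. With the block and the GC trend removed it was 10, 10, 0 and 42, against 17.1%, 21.1%, 0.731% and 65.7%. Same-numbered libraries had correlations of their deviations of -0.035, -0.197 and -0.118 in H929 and 0.255, -0.030 and -0.060 in OPM2. Such deviations followed GC content in several libraries, so these correlations cannot tell whether same-numbered libraries belong together. In H929 no dBRD9-A library correlated best with its own number: replicate 1 reached 0.551 with DMSO replicate 3, replicate 2 reached 0.483 with DMSO replicate 1 and replicate 3 reached 0.654 with DMSO replicate 2. In OPM2 replicate 1 alone did.

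Over 59 members and all alternatives, 194 called values kept their call in H929 and 92 lost it, 213 and 70 in OPM2, and 700 and 55 between the lines. In OPM2 9 values turned their sign with a call on 1 side. With 1 library left out, EIF2A ranged from -0.26 to 0.23 and EIF5B from -0.40 to 0.68, each lowest without dBRD9-A replicate 2. The 9 were EEF1A2 (0.059) and EEF1D (0.20) with the GC trend removed, EEF1D (0.12) with block and GC trend, EIF2A (-0.26) and EIF5B (-0.40) without dBRD9-A replicate 2, and EEF1B2 (-0.21), EIF2A (-0.23), EIF5AL1 (-0.68) and EIF5B (-0.37) with limma-voom. In H929, EIF3B, EIF4A1 and EEF1A2 lost their calls under 7, 10 and 8 of 22 alternatives. With 3 libraries a group, an exact permutation test of a single value cannot go below p = 0.1.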

Other observations

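Genes that act on these factors without carrying their names were read from lists of regulators, partners and mitochondrial factors. Of 16 regulators, 2 were called higher and 1 lower in H929, and 4 higher and 2 lower in OPM2, against 7.33% of all genes higher and 5.67% lower in H929, and 10.1% higher and 7.34% lower in OPM2. Without OPM2 dBRD9-A replicate 2 the counts were 6 higher and 3 lower in H929, and 4 higher and 2 lower in OPM2, against the larger shares of all genes called in that fit. PDCD4, an inhibitor of the helicase eIF4A, was called higher in both lines: it was at 40.1 ± 9.07 CPM with dBRD9-A, against 21.9 ± 1.95 CPM in DMSO in H929 and at 33.4 ± 10.96 CPM with dBRD9-A, against 15.7 ± 0.803 CPM in DMSO in OPM2 (SD, n = 3 each). Its log2 fold change was 0.87 ± 0.22 in H929 (SE, edgeR adjusted p = 0.0209) and 1.08 ± 0.22 in OPM2 (adjusted p = 0.00645). LARP1, the protein that binds pyrimidine starts, was called lower in both lines, with -0.51 ± 0.13 (adjusted p = 0.0274) in H929 and -0.49 ± 0.13 (adjusted p = 0.026) in OPM2. EIF4EBP1, which sequesters eIF4E, was called lower in OPM2 (-0.79 ± 0.24, adjusted p = 0.0397) and had -0.68 in H929 (adjusted p = 0.0774). Of the eIF2 kinases, EIF2AK2, the kinase activated by double-stranded RNA, was called higher in OPM2 (0.94; 0.54 without dBRD9-A replicate 2) and EIF2AK4, activated by amino acid shortage, in H929 (0.43). MKNK1, a kinase of eIF4E (0.36), and PPP1R15A, which directs the phosphatase that restores eIF2 (0.33), were the other 2 called higher in OPM2.

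Of 14 partner, release and recycling factors, ABCE1, which splits ribosomes (-0.72), and GSPT1, the release factor eRF3 (-0.55), were called lower in H929. PAIP2, which binds the poly(A)-binding protein, was called higher in OPM2 (0.90; 0.49 without dBRD9-A replicate 2). Leaving out OPM2 dBRD9-A replicate 2 gave 6 called lower in H929, and 5 lower and 1 higher in OPM2, where ABCE1 (-0.64) and GSPT1 (-0.46) were then called lower too. Of 9 mitochondrial translation factors, MRRF, the mitochondrial ribosome recycling factor, was called lower in both lines (-0.36 in H929 and -0.49 in OPM2). GFM1, an elongation factor, was called lower in H929 (-0.47), and TUFM, another, in OPM2 (-0.51). With that replicate left out, 5 of the 9 were called lower in each line, GFM1, MRRF and TUFM among them in both. Of all genes, 5.67% were called lower in H929 with all libraries, and 7.34% lower and 10.1% higher in OPM2. Without OPM2 dBRD9-A replicate 2 the shares of all genes were 16.5% lower in H929, and 15.6% lower and 16.1% higher in OPM2.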
